A study of Mus musculus with 22 samples.

Results

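Genes that give the brain and spinal cord their regional and neuronal identities were examined for H3K27me3, a repressive histone mark, in embryonic mouse retina with and without Jarid2. The list held 48 transcription regulators, most of them homeobox genes, with the bHLH-PAS genes Sim1 and Sim2, the T-box genes Tbr1 and Eomes, the paired box genes Pax2 and Pax5 and 3 PRDM zinc-finger genes beside them. Members were found as peaks that the deposited annotation names for them, and 43 of the 48 had such a peak. They held 75 of the 19034 peaks in the table (0.394%), and 43 of its 12370 gene names. Across animals 3.52% to 4.35% of the reads in peaks lay in these peaks in controls and 3.68% to 4.14% in Jarid2 conditional knockouts (cKO).

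The retinas were from C57BL/6 mice at embryonic day 18.5, profiled by CUT&RUN, in which an antibody-tethered nuclease cuts out the DNA around marked nucleosomes. The 5 cKO animals were Jarid2 fl/fl; Rx-cre, and the protocol text adds that tamoxifen was given at E10.5 (75 µg per g) to a Rax-CreERT2 line, so that Cre was driven in Rax-expressing retinal progenitors and their progeny. Of the 5 controls, replicate 1 was Jarid2 fl/+; Rx-cre, replicate 3 was Jarid2 fl/fl and replicates 2, 4 and 5 were Jarid2 fl/+, with no Cre in the labels of replicates 2 to 5. The protocol text instead gives the controls as fl/fl, and the sample labels were followed. The same tamoxifen day and dose were recorded for the controls and the cKO animals. Batch 1 held 2 animals of each group (control replicate 1 and cKO replicate 2 male, the other two female) and batch 2 held 3 of each, all male. The 2 retinas of an animal were pooled. The measurement was on whole retina, so a lower level in every cell and a loss in some cells cannot be told apart. Animals held 1688368 to 2864080 reads in peaks. The single peak named for Jarid2 held 4.42 ± 0.456 CPM (reads scaled to a common library total) in controls and 4.35 ± 1.73 in cKO (SD, n = 5 each), and a histone mark there does not check the deletion.

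H3K27me3 is written by Polycomb repressive complex 2, for which Jarid2 is an accessory subunit. In vertebrate embryos this complex covers CpG-rich start sites of developmental regulators that a tissue does not use, often as domains that spread over a whole gene or gene pair. Several genes of the list are nevertheless known in the retina: Vsx1 in bipolar cells, Prdm13 in amacrine cells, Dlx1, Dlx2, Tbr1 and Eomes in ganglion cells or their precursors, Pax2 in the optic stalk and in astrocytes of the optic nerve, Hmx1 in eye development, and Pou3f1 and Pou3f2 in retinal neurons and their progenitors.

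The tissue label was compared with 5 regulators that define retinal progenitors. Rax, Six3, Six6 and Sox2 had no peak named for them, and Pax6 held 4.52 CPM per kb. By RefSeq coordinates, the nearest peak lay 58.0 kb from Rax, 36.2 kb from Six3, 73.9 kb from Six6 and 3.62 kb from Sox2. No peak overlapped the body of 4 of these 5 genes, in the same libraries in which the brain and spinal cord genes were covered.

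Promoter sequence was read for 37 of the members from RefSeq (GRCm38.p6, the assembly that mm10 represents), as 41 windows of the 250 bases before a start site. In 39 of the 41, the window lay inside an H3K27me3 peak. The windows outside were those of Pou3f2 and Hmx1. Members without a window included Pou3f1, Dlx3 and Nkx6-3, and the widest peaks of Pou3f1 and Nkx6-3 did not cover a start site. The share of all RefSeq windows inside a peak was not counted. At least 10 CpG dinucleotides (CG, which reads the same on both strands) were found in 75.6% of the 41 windows and in 37.8% of all 32851 RefSeq windows. The medians were 15 and 6 CpG, and the median GC contents 60.8% and 52.4%. TATAAA on either strand was present in 12.2% and 12.4%. The windows of 5 members follow, 5′ to 3′ on the gene's strand, with every CpG in capitals. Pou3f2 and Pou3f3 are shown as close relatives whose promoters lay outside and inside a peak, Sim1 as the wide domain with the smallest p among the members, and Vsx1 and Hmx3 as the CpG-poor and CpG-richest windows, all of these but that of Pou3f2 lying inside a peak.
Pou3f2, chr4:22488367-22488616, minus strand, 18 CpG: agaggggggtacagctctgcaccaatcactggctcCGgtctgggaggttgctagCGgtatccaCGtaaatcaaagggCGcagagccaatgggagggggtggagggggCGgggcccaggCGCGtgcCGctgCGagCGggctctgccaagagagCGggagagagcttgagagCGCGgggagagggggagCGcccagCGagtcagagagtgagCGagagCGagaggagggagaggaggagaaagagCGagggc
Pou3f3, chr1:42695518-42695767, plus strand, 15 CpG: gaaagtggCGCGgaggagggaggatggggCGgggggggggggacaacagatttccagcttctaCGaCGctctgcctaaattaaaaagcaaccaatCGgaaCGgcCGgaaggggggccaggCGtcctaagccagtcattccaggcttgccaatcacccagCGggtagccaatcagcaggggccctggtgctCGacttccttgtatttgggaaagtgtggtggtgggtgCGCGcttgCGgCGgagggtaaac
Sim1, chr10:50895401-50895650, plus strand, 11 CpG: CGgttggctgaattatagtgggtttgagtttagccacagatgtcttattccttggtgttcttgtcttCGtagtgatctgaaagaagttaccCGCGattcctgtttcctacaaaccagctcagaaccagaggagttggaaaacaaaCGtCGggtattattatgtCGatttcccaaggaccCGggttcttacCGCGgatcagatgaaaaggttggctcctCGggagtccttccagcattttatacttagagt
Vsx1, chr2:150689138-150689387, minus strand, 3 CpG: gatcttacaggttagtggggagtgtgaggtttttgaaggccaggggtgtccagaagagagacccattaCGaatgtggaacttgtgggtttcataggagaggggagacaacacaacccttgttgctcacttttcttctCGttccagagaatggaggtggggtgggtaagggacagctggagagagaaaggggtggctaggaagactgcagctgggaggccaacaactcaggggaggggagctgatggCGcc
Hmx3, chr7:131542713-131542962, plus strand, 31 CpG: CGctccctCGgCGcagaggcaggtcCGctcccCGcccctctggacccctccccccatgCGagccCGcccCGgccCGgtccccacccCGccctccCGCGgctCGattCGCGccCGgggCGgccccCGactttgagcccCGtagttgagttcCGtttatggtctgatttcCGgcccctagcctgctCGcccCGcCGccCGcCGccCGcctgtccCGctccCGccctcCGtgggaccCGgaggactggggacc

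Most of these genes carried dense and wide H3K27me3 domains. Levels are given as CPM per kb of a gene's summed peaks. The median member held 25.01 CPM per kb in controls, against 6.18 for all genes, and 40 of the 43 were in the top 10% of all genes. Their peaks were also wide: the widest peak of a member had a median width of 32.1 kb, from 2.371 kb at Pou3f1 to 65.671 kb at Gbx2, while the median of all peaks was 2.79 kb. In 39 of 43 members the widest peak spanned at least 10 kb and covered the start site. Counting every peak, 41 of the members' 75 peaks were at least 10 kb wide, against 9.72% of all peaks. The widest peak per gene was not summarised for all genes. The series held 1278 tested peaks of that width over a start site, with a median of 16.2 CPM per kb and 15.1 kb. The 39 of the members had medians of 26.6 CPM per kb and 32.9 kb.

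The 4 members without such a domain were Pou3f1, Pou3f2, Dlx3 and Nkx6-3, with widest peaks of 2.371, 8.801, 8.221 and 8.771 kb. Of these, 3 were also the lowest per length: Nkx6-3 held 8.42 ± 0.931 CPM per kb and Pou3f2 11.8 ± 1.79 (SD, n = 5), with Pou3f1 between them. The next in order, Dlx3, a skin and tooth regulator of the Dlx family, held 19.5 ± 2.66 CPM per kb, above the SD of either neighbour. This was the 1 step in the order larger than the larger SD of its neighbours, and the levels above it rose in smaller steps, up to Dlx4 (37.2 ± 5.11) and Tlx3 (38.5 ± 4.86). The order of the genes was nearly the same in cKO (Pearson's r = 0.994 across the 43 genes, which share libraries and depth).

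**Figure D1:**
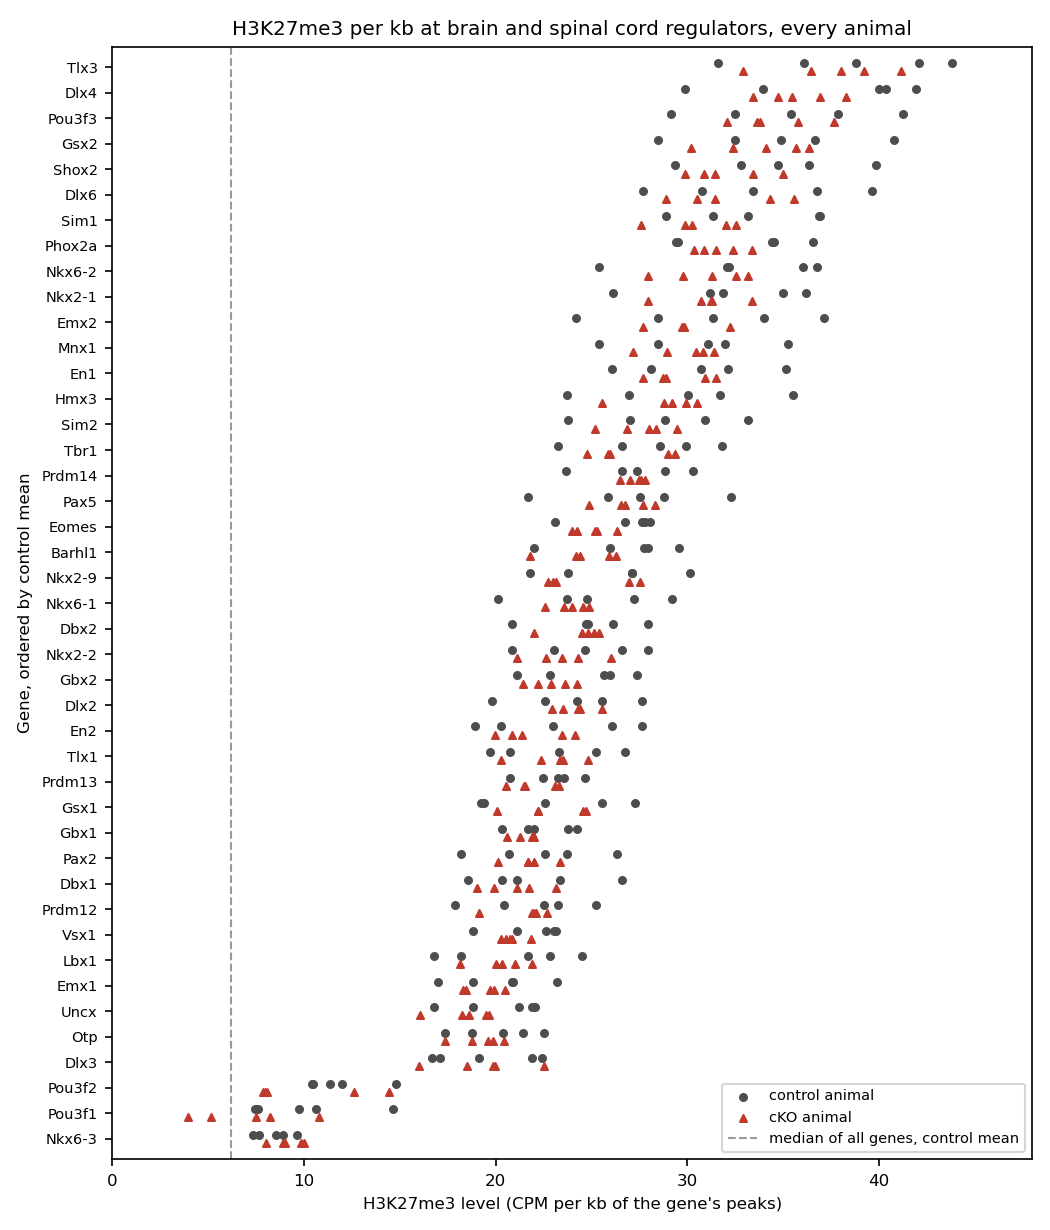
H3K27me3 in CPM per kb of a gene's peaks (x axis) for 43 genes ordered by control mean (y axis), with circles for the 5 control animals, triangles for the 5 cKO animals and a dashed line at the median of all genes (6.18). All genes but Nkx6-3, Pou3f1 and Pou3f2 have control means from 19.5 upwards, and the cKO animals lie within the range of the controls at 35 of the 43 genes.

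Within the roles, the densest midbrain and hindbrain genes were En1 (30.4 ± 3.53 CPM per kb), an engrailed gene of the midbrain-hindbrain boundary, and Pax5 (27.2 ± 3.91), and the least dense was Pax2 (22.3 ± 3.09). The role sets are groupings for description and were not tested. The set grouped as forebrain took in Dlx genes such as Dlx3, described above as a skin and tooth regulator. In this set Dlx4 and Gsx2 (34.7 ± 4.59), the latter a regulator of ventral telencephalic progenitors, were highest and Dlx3 lowest. Among the hypothalamic regulators Sim1 held 33.5 ± 3.49, Sim2 28.8 ± 3.61 and Otp 20.1 ± 2.06 CPM per kb. In the ventral spinal cord set Nkx6-2 (32.5 ± 4.53) and the motor neuron gene Mnx1 (30.4 ± 3.71) were highest, with Nkx6-3 lowest. In the dorsal spinal cord, hindbrain and sensory set Tlx3, a selector of excitatory dorsal horn neurons, and Shox2 (34.6 ± 3.92) were highest and Uncx (20.1 ± 2.29) lowest. Prdm14, a germline regulator, held 27.4 ± 2.5, and Vsx1, the retinal bipolar gene, 21.8 ± 1.83. These levels are divided by the width of all peaks of a gene, so sparse smaller peaks lower them. Over the widest peak alone, Sim2 held 35.1, Sim1 34.0 and Otp 24.8 CPM per kb in controls. Uncx held 24.3 there and was not the lowest of its set, with Prdm12 at 21.8.

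The domains of neighbouring genes were shared. Dlx1 lay wholly in the 33161 bp peak named for Dlx2, Dlx5 in the 60201 bp peak named for Dlx6, Hmx2 in the 24411 bp peak named for Hmx3, and Bsx in a 47471 bp peak that the annotation gives to the neighbouring gene Jhy. Hmx1 lay partly under a peak named for its neighbour 4930442P19Rik, and a peak named for E130018O15Rik ended just upstream of it. These 5 members therefore had no value of their own in sums by gene name. The Bsx peak had a log2 fold change, cKO over control, of -0.07 ± 0.07 (SE, edgeR adjusted p = 0.634), the Dlx2 peak 0.03 ± 0.07 (0.840), the Dlx6 peak -0.05 ± 0.07 (0.758) and the Hmx3 peak -0.02 ± 0.08 (0.906). The peak upstream of Hmx1 held 123 ± 16.6 CPM in controls and 138 ± 10.9 in cKO, a log2 fold change of 0.18 ± 0.08 (edgeR adjusted p = 0.197). Its log2 fold change was 0.007 in batch 1 and 0.28 in batch 2. The peak over part of Hmx1 gave 0.03 ± 0.10 (adjusted p = 0.929). None of these 6 peaks passed the threshold, an adjusted p under 0.05 over all peaks in edgeR's quasi-likelihood test with batch as a term.

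In cKO retinas most of these genes lay close to their control level. Pou3f1 was the 1 member that passed the threshold, and that call was lost under several settings. Of the 43 genes, 1 was lower in cKO and 0 were higher, where 8.29% of all 11324 genes tested were lower and 1.48% higher (939 and 168 genes). At total-count scaling in place of TMM, the share of lower genes among all calls was 61.9% instead of 84.8%. All 43 genes and 70 of their 75 peaks passed the filter on low counts. Of the 70 tested peaks, 1 was lower and 0 higher, against 7.38% and 1.46% of all 16307 peaks. At an unadjusted p under 0.05, 3 member genes were lower and 0 higher in edgeR, and DESeq2 and limma-voom gave the same counts, against 23% of all genes in either direction in edgeR. At the adjusted threshold DESeq2 called 0 members (6.27% of all genes lower, 0.283% higher) and limma-voom called 1 lower and 0 higher (8.15% and 1.72%). Among the 70 member peaks, 5 were lower and 1 higher at that unadjusted p, against 13.2% and 8.32% of all peaks. Called members made up 2.33% of the 43, against the 8.29% of all genes. At 35 of the 43 genes every cKO animal lay within the range of the controls, and at 0 were the groups without overlap. Over all genes tested these shares were 20.5% and 3.81%. The members are not independent here: control replicate 1 was the highest of the 10 animals at 37 of them and control replicate 5 the lowest at 33. No test compared the members with other genes.

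The values near 0 were measured narrowly. The median standard error of a member's log2 fold change was 0.065, against 0.113 for all genes. The 95% interval lay within 1.2-fold in either direction for 39 of the 43 members and within 1.5-fold for 42. The median log2 fold change was -0.05 for the members, with 39 of 43 below 0, and 0.02 for all genes, of which 46.8% were below 0. The direction of this small shift depended on the scaling: the members' median was 0.01 with 17 of 43 below 0 by total counts, and 0.02 with 11 below 0 when offsets were fitted for a trend with peak level. Total-count scaling moved the median of all genes to 0.07.

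**Figure D2:**
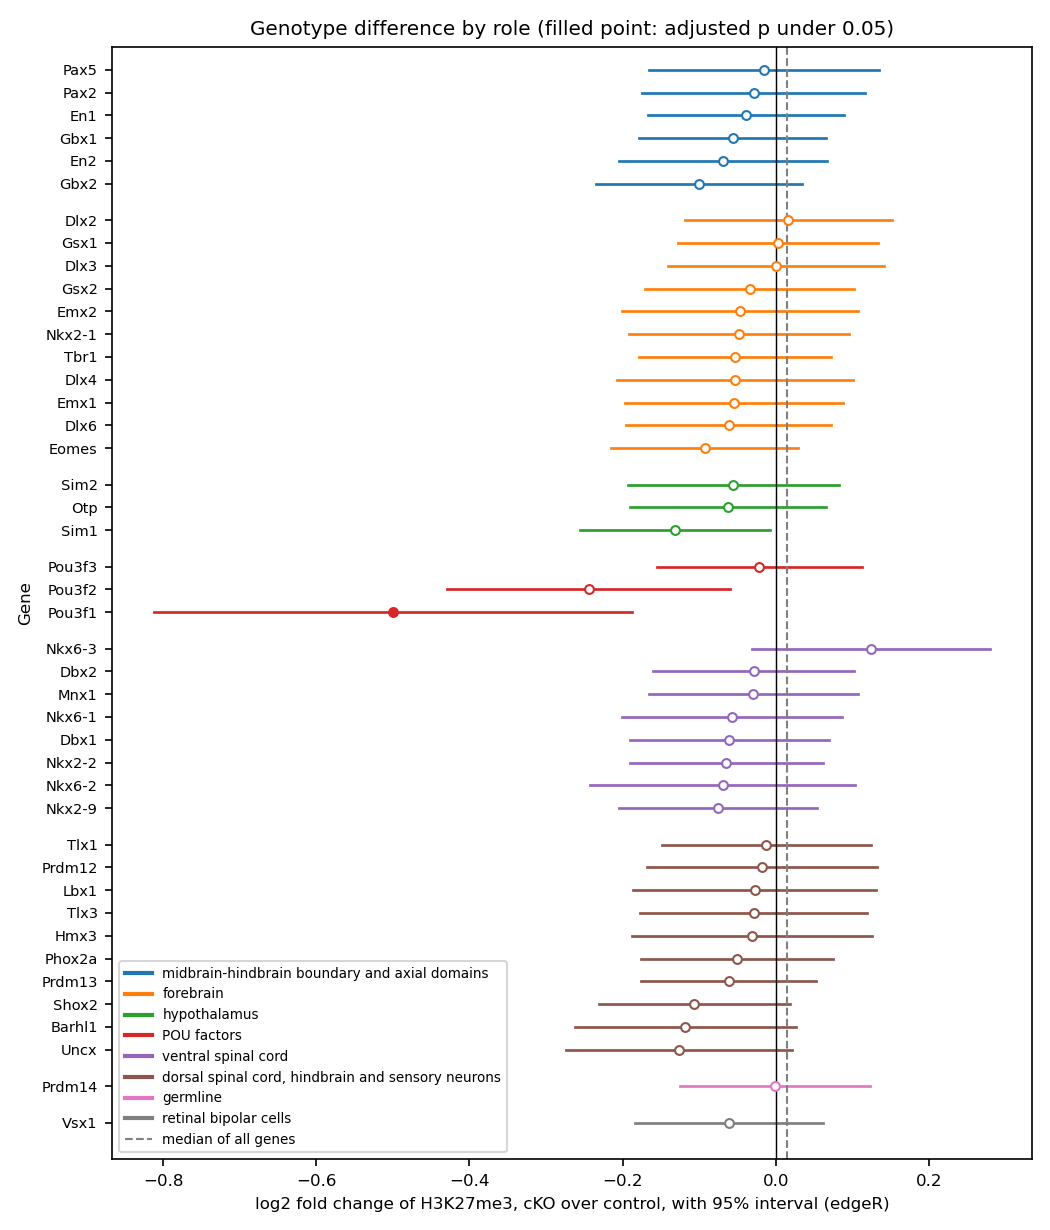
Log2 fold change of summed H3K27me3 in cKO over control (x axis) with its 95% interval for 43 genes (y axis), coloured by role, with filled points for an adjusted p under 0.05 and a dashed line at the median of all genes. Pou3f1 is the only filled point, Pou3f2 and Sim1 have intervals below 0, and the others cross 0.

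The POU factors are homeobox proteins of neural progenitors and of migrating or differentiating neurons, and Pou3f1 is also known for its part in the onset of myelination by Schwann cells. The Pou3f1 peak (chr4:124654250-124656620, mm10) was the narrowest of the widest peaks and is annotated as promoter, 0.187 kb from a start site, upstream of the RefSeq gene. Control replicates 1 to 5 held 18.01, 17.6, 34.7, 23.1 and 25.2 CPM. The cKO replicates held 9.30, 12.2, 19.5, 17.8 and 25.5 CPM. Each cKO animal lay below the control mean of its batch, the batch 1 animals below both controls of that batch, but cKO replicate 5 exceeded 4 of the 5 controls and the groups overlapped. The means were 23.7 ± 6.93 and 16.9 ± 6.37 CPM (SD), a log2 fold change of -0.50 with an SE of 0.15 (edgeR adjusted p = 0.0393, 95% interval -0.81 to -0.19). Within batches the values were -0.71 and -0.43, with adjusted p of 0.237 and 0.145 in each batch alone.

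The Pou3f1 call rested on 461 reads over 10 animals and was lost under several settings. The adjusted p was 0.117 in DESeq2, 0.0602 with total-count scaling and 0.277 without the batch term. It was 0.0309 with the first technical duplicate of the batch 2 animals and 0.256 with the second. Leaving out control replicate 1, 2 or 3 gave 0.0574, 0.0585 and 0.152, and leaving out cKO replicate 1, 2, 3 or 4 gave 0.0803, 0.0562, 0.0915 and 0.111. It held without control replicate 4 (0.0199), control replicate 5 (0.0355) or cKO replicate 5 (0.0153). In all of these the direction was lower, with log2 fold changes from -0.71 to -0.37.

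Pou3f2, a neuronal and glial progenitor factor also called Brn2, had a peak over part of its gene body that stopped short of the promoter window printed above (chr4:22477990-22486790, 1576 bp from the start site). The controls held 105.6, 130.3, 100.04, 91.8 and 92.1 CPM. The cKO animals held 127.1, 111.1, 69.3, 71.1 and 70.0 CPM. In batch 2 the 3 cKO animals lay below all 3 controls with no overlap, and in batch 1 they did not differ in this way: the highest values of the 10 were those of the 2 female animals, control replicate 2 and cKO replicate 1. The log2 fold change was -0.24 ± 0.09 (edgeR adjusted p = 0.0926), with 0.03 in batch 1 and -0.44 in batch 2. In batch 2 alone the adjusted p was 6.06e-04, and the difference between batches had an adjusted p of 0.796 (unadjusted 0.00364). It passed the threshold with sex as a further term (0.0351), without control replicate 1 (0.00798) and without cKO replicate 1 (0.0221). The part of sex in these values was not tested.

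Pou3f3, the third of these genes, also called Brn1, lay in a 42.7 kb domain over its start site. Control replicates held 1762, 1618, 1513, 1388 and 1245 CPM, and cKO replicates 1527, 1609, 1444, 1437 and 1371 CPM. The cKO values lay inside the range of the controls, and the log2 fold change was -0.02 ± 0.06 (edgeR adjusted p = 0.888, 95% interval -0.16 to 0.11). That interval does not reach the Pou3f1 estimate, although the difference between the 2 genes was not tested.

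**Figure D3:**
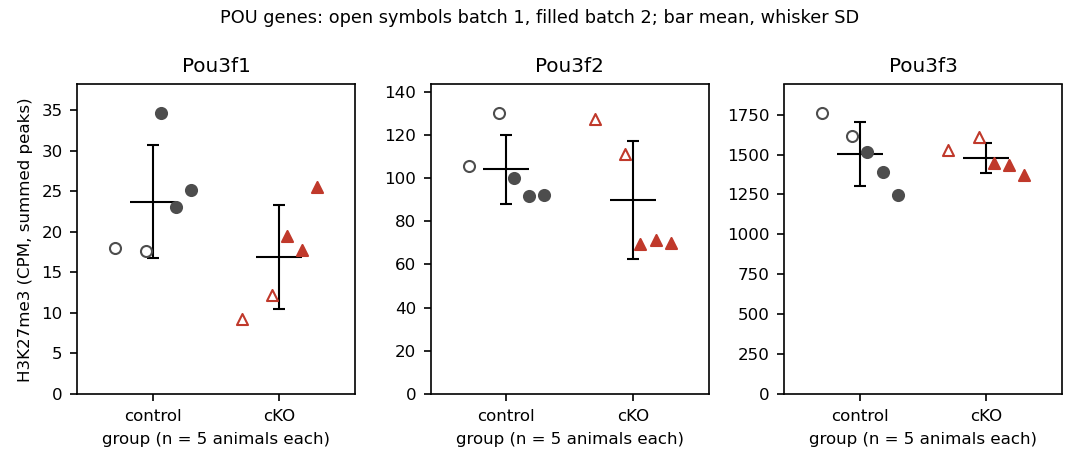
Summed H3K27me3 (CPM, y axis from 0) at Pou3f1, Pou3f2 and Pou3f3 in 5 control animals (circles) and 5 cKO animals (triangles), open for batch 1 and filled for batch 2, with the mean as a bar and the SD as whiskers. The batch 2 cKO animals hold 69.3 to 71.1 CPM at Pou3f2 against 91.8 to 100.04 in the batch 2 controls, while the groups overlap at Pou3f3.

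Of the hypothalamic genes, Sim1, which is needed for neurons of the paraventricular nucleus, had the next smallest p. Its domain (chr10:50884310-50935430) covered the start site. The controls held 1930, 1932, 1738, 1642 and 1513 CPM, and the cKO animals 1705, 1676, 1585, 1565 and 1445 CPM. Each cKO animal lay below the control mean of its batch and both batch 1 cKO animals below both batch 1 controls, but the groups overlapped across batches. The log2 fold change was -0.13 ± 0.06 (edgeR adjusted p = 0.190), and leaving out control replicate 5 gave -0.16 with an adjusted p of 0.0227. Otp, which acts with Sim1 in neuroendocrine neurons, gave -0.06 ± 0.06 (0.604), and Sim2 gave -0.06 ± 0.07 (0.678).

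Among the dorsal spinal cord, hindbrain and sensory genes, 0 of 10 passed and the median was -0.04 (from -0.13 to -0.01). Uncx, a regulator of axial skeleton and of neurons, gave -0.13 ± 0.07 (edgeR adjusted p = 0.308). Shox2, which marks spinal interneurons of locomotor circuits, gave -0.11 ± 0.06 (0.308), with 871 ± 55.6 CPM in cKO and 939 ± 106 in controls. Barhl1, known in cerebellar granule cells and hair cells, gave -0.12 ± 0.07 (0.331). Without control replicate 5, Shox2 had an adjusted p of 0.0471. Lbx1, the selector of inhibitory dorsal horn neurons, gave -0.03 ± 0.08 (0.875) and its counterpart Tlx3 -0.03 ± 0.07 (0.858). The other members here were Tlx1, Phox2a, Hmx3, Prdm12 and Prdm13, between -0.06 and -0.01. Prdm13, which specifies amacrine cells in the retina, held 1295 ± 82.1 CPM in controls and 1241 ± 65.5 in cKO (adjusted p = 0.557).

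In the ventral spinal cord set 0 of 8 genes passed, with a median of -0.06. Nkx6-3 was the member with the highest fold change, 0.12 ± 0.07 (edgeR adjusted p = 0.346). Its controls held 111, 103, 98.6, 84.8 and 87.9 CPM and its cKO animals 102, 115, 104, 92.5 and 113 CPM, so the groups overlapped. The progenitor domain genes Nkx2-2, Nkx2-9, Nkx6-1, Nkx6-2, Dbx1 and Dbx2 and the motor neuron gene Mnx1 lay between -0.08 and -0.03.

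In the forebrain set 0 of 11 genes passed, with a median of -0.05 and a range from -0.09 (Eomes) to 0.02 (Dlx2). Eomes, a regulator of intermediate progenitors in cortex and of a subset of ganglion cells in retina, gave an adjusted p of 0.376, and 0.0457 without control replicate 5. Dlx2, a regulator of inhibitory interneurons, gave 0.02 ± 0.06 (edgeR adjusted p = 0.919), and 0.09 with an adjusted p of 0.0243 with the offsets for a trend. The others were Emx1, Emx2, Dlx3, Dlx4, Dlx6, Gsx1, Gsx2, Nkx2-1 and Tbr1. Of the midbrain and hindbrain genes 0 of 6 passed, from -0.10 at Gbx2, a hindbrain-side regulator of the boundary, to -0.02 at Pax5, with En1, En2, Gbx1 and Pax2 between them. Prdm14 gave -0.0014 and Vsx1 -0.06 ± 0.06 (edgeR adjusted p = 0.590).

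Of the 8 members known in the retina that had a value, 1 was lower (Pou3f1) with a median of -0.06. Of the other 35 members 0 were lower with a median of -0.05. Over all genes tested 8.29% were lower, and the Pou3f1 call was lost under several settings. Vsx1, known from bipolar cells, held 348 ± 29.2 CPM in controls and 333 ± 9.43 in cKO. No test compared the groups.

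Peaks over a start site and peaks beside it were then taken singly. The 41 tested peaks over a start site had a median width of 32.8 kb and 26.6 CPM per kb. Their log2 fold changes ran from -0.12 to 0.03 with a median of -0.04, 36 were below 0, and the smallest edgeR adjusted p was 0.323. The 29 tested peaks elsewhere had a median width of 2.98 kb and 6.22 CPM per kb. They scattered more, 17 of 29 were below 0, the median was -0.01, and 6 had an unadjusted p under 0.05, where 22.6% of all tested peaks not over a start site had one. They were also measured less narrowly, with an SE from 0.063 to 0.286, against 0.062 to 0.086 at the peaks over a start site. The part of this in the scatter was not tested. Among the series' 1278 peaks of at least 10 kb over a start site, 7.82% were lower and 1.25% higher, and 52.4% were below 0. Of the members' 39 such domains 0 were lower or higher, and 35 were below 0.

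**Figure D4:**
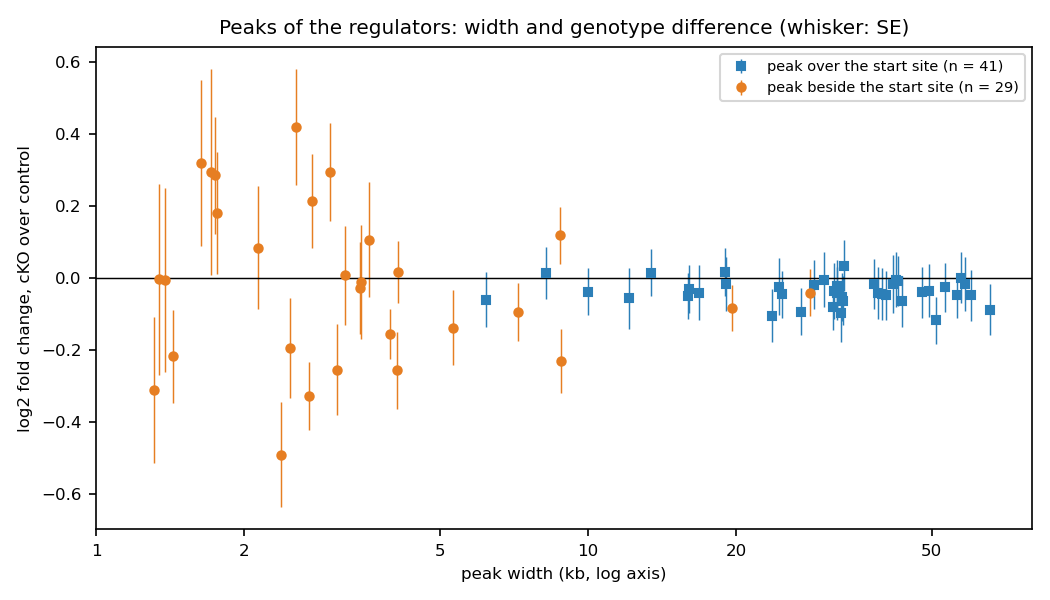
Log2 fold change in cKO over control (y axis, whiskers SE) against peak width in kb (x axis, log scale) for the 70 tested peaks, squares for the 41 over a start site and circles for the 29 beside it. The squares lie between -0.12 and 0.03, and the circles at widths under 10 kb spread from -0.49 to 0.42.

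Uncx had the most peaks, a 32.751 kb domain and 5 more from 27.9 to 75.2 kb away, and all 6 had log2 fold changes below 0. At the peak 55.5 kb away (chr5:139599410-139602110) the controls held 28.6, 28.7, 32.3, 32.3 and 32.8 CPM and the cKO animals 22.7, 25.3, 26.3, 24.8 and 24.3 CPM. All 5 cKO animals lay below all 5 controls. The share of all peaks without overlap was not counted, and among summed genes it was 3.81%. The log2 fold change was -0.33 ± 0.10, which did not pass the threshold over all peaks (edgeR adjusted p = 0.0532, DESeq2 adjusted p = 0.330). The Uncx peak 47.4 kb away gave -0.26 ± 0.11 (0.164).

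Gbx1, a relative of Gbx2, had 4 peaks that did not share a direction. The peak in its intron 12.1 kb from the start site held 11.1 ± 1.33 CPM in controls and 14.6 ± 4.47 in cKO (0.42 ± 0.16, edgeR adjusted p = 0.123), and the peak annotated to its 3′ UTR held 88.2 ± 4.79 and 79.1 ± 5.99 CPM (-0.15 ± 0.07, 0.192). A further intronic peak gave -0.31 ± 0.20 (0.517). En2 had a second domain of 28321 bp, 25.2 kb from its start site, at -0.04 ± 0.06 (0.783). The smaller peaks of Dlx2, Emx2, Sim2, Otp, Nkx2-2 and Lbx1, the other members with at least 3, lay between -0.25 and 0.32.

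The animals were ordered alike at almost every member. In batch 2 control replicate 3 was the highest control at 43 of 43 genes and control replicate 5 the lowest at 38. Of all 10 animals control replicate 1 was highest at 37 genes and control replicate 5 lowest at 33. The TMM factors of these animals were 0.950 and 1.05, the second lowest and the highest of the 10 for gene sums. Their part in the members' values was not tested, and the order of the animals over all genes was not counted. Without control replicate 1 the members' median was -0.018, without control replicate 3 it was -0.012, without cKO replicate 1 it was -0.025, and without control replicate 5 it was -0.097.

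The 2 batches differed in where the members lay. In batch 1 their median was -0.11 with 41 of 43 below 0 (all genes 0.0076), and in batch 2 it was 0.0047 with 21 below 0 (all genes 0.014). The sign was the same in both batches for 21 members. In edgeR's test of the batch by genotype difference 0 members passed, against 0.00864% of all 11574 genes tested, and 1 member had an unadjusted p under 0.05. The shares of all genes with the same sign in both batches and at this unadjusted p were not counted. Control replicate 1 was the single control with Cre, and females were in batch 1 alone. The part of either in the difference between batches was not tested.

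**Figure D5:**
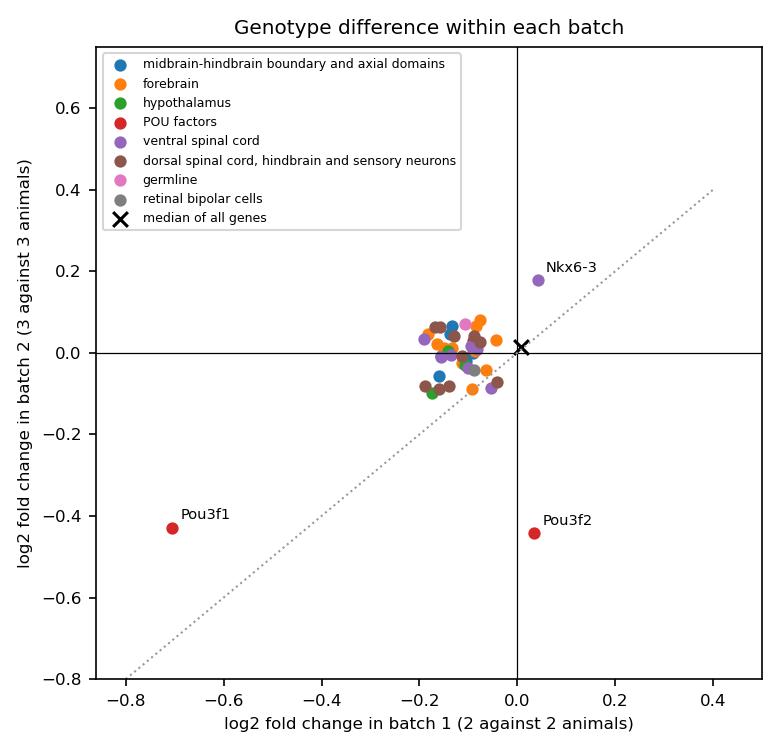
Log2 fold change in cKO over control in batch 1 (x axis) and batch 2 (y axis) for 43 genes coloured by role, with a cross at the median of all genes and a dotted line of equality. Most genes lie left of 0 in batch 1 and on both sides of 0 in batch 2, Pou3f1 lies below 0 in both, and Pou3f2 lies below 0 in batch 2 alone.

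A further 28 regional neural regulators outside the list were taken for comparison, and 25 had a value. Of these, 1 was lower and 0 higher, all 25 were below 0 and the median was -0.06. Over all genes tested 8.29% were lower, 1.48% higher and 46.8% below 0. The signs of these 25 genes under other scalings were not counted, and those of the members changed with the scaling. Otx1, a forebrain and midbrain homeobox gene, held 918 ± 80.9 CPM in controls and 726 ± 84.5 in cKO (-0.34 ± 0.08, edgeR adjusted p = 0.00698). Of 8 genes that mark other cell types of the eye, the pigment epithelium and melanocyte regulator Mitf (-0.19 ± 0.05, 0.0280) and the lens gene Foxe3 (-0.01 ± 0.07, 0.955) had a value, and the other 6, among them Tyr, Rpe65, Pecam1 and Ptprc, were not tested. What share of such cells was in the samples was not tested.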

How the data were processed

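H3K27me3 CUT&RUN counts were analysed for 5 control and 5 cKO animals. The labels list 22 libraries, of which 16 are H3K27me3, and the 6 IgG libraries were left aside. The authors deposited counts per peak and library for 1 peak set. The submitters' processing notes name MACS2, SAMtools, Novoalign 4.02.02, mm10 and DESeq2 1.38.1 without their roles, and settings were not given in these sources. The table deposited by the authors also has, per peak, p-values, a test score, a log2 fold change and a mean signal, for a contrast its header leaves unnamed. That log2 fold change correlated at -0.966 across peaks with batch 2 minus batch 1, and was not used.

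Technical duplicates agreed within counting noise (chi-square over its degrees of freedom was 0.876 to 0.979, and 1.08 to 2.9 between animals) and were summed. Nothing says that groups came from separate litters. Counts were summed over peaks of a gene name, filtered with filterByExpr and scaled by TMM. edgeR 4.0.16 quasi-likelihood tests (R 4.3.3, genotype and batch) were adjusted by Benjamini-Hochberg over all features, with a threshold of 0.05, and CPM used TMM library sizes. DESeq2 1.42.0 and limma-voom (limma 3.58.1) were alternatives, and the tests were checked on simulated data. Same-numbered animals did not deviate together in batch 2 (correlations 0.0141 to 0.0942). In batch 1, with 2 animals per group, replicates 1 and 2 share 1 value by construction (-0.444). Figures used matplotlib 3.10.9. The members and lists were chosen with earlier results of these data known. Named genes were those past the threshold, the 6 next by p, the 2 densest and the least dense of each role, and those with 3 or more peaks. A further gene listed for the tissue check is not reported here and is not among the 5 given.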

Additional observations from a re-analysis of the deposited data

Results flagged for a closer look

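Among 86 groups of 5 animals (43 genes in control and in cKO), 3 had an animal far from the other 4 by Dixon's criterion, where chance gives about 1 in 20. At Eomes, control replicate 5 held 728.3 CPM and the other controls 844.1 to 884.5, a gap of 0.76 of the range. At Dbx2, cKO replicate 5 held 670.6 CPM and the other cKO animals 746.5 to 773.5 (0.751). At Prdm12, cKO replicate 5 held 807.7 CPM and the others 924.1 to 957.2 (0.793). In each case the animal was the lowest of its group.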

How the results depend on the processing

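Over all genes, 939 were lower and 168 higher in cKO. Genes lower numbered 249 without the batch term, 0 in batch 1 alone, 395 by RefSeq gene bodies, 411 from promoter peaks alone and 591 at a threshold of 0.01. Genes higher numbered 467 by total count, 18 without the batch term, 32 in DESeq2, 0 in batch 1 alone, 83 with the first duplicate, 94 by RefSeq gene bodies, 69 from promoter peaks, 416 at 0.1 and 33 at 0.01, and 89 to 244 with animals left out in turn. Over all peaks, 1204 were lower: 338 without the batch term, 0 in batch 1 alone and 793 at 0.01. The 238 peaks higher became 461 by total count, 26 without the batch term, 28 in DESeq2, 0 in batch 1 alone, 98 and 116 with the first and second duplicate, 516 at 0.1, 46 at 0.01, and 114 to 288 with animals left out.

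The 1 member gene lower became 0 by total count, without the batch term, in DESeq2, in batch 1 alone, with the second duplicate and at 0.01. It became 2 with sex as a further term and at 0.1, and 0 to 4 with animals left out. In batch 2 alone, and without control replicate 1 or cKO replicate 1, the 1 member gene lower was Pou3f2 and not Pou3f1. The 1 member peak lower became 0 by total count, without the batch term, in DESeq2, in batch 1 alone, with the second duplicate and at 0.01. It became 2 by RLE factors, offsets for a trend, sex as a further term, limma-voom and at 0.1, and 0 to 4 with animals left out. Offsets for a trend, chosen after seeing the data, gave 1 member gene and 1 member peak higher (0 otherwise). The replicate block, whose numbers are not shown to pair the animals, gave 2 member genes lower, adding Sim1 (-0.14, adjusted p = 0.0396), with 1030 genes lower and 133 higher. Changes of sign of values not called were 1 to 28 of the members by setting. The causes were not tested. The Pou3f1 peak held 461 reads over the 10 animals.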
